A study of Mus musculus with 9 samples.

Results

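The integrin and laminin chains were followed in the RNA-Seq data of mouse embryonic fibroblasts (MEFs), which are fibroblasts cultured from mouse embryos. Members were chosen by name alone, as every gene of the table named as an integrin alpha chain (Itga), an integrin beta chain (Itgb) or a laminin alpha, beta or gamma chain (Lama, Lamb, Lamc). Of the 15184 genes in the table, 31 met this rule, 13 of them integrin alpha chains, 8 integrin beta chains and 10 laminin chains. GENCODE vM39 holds 36 genes with such names, and Itgad, Itgae, Itgam, Itgax and Lama1 were not listed in the table. The 9 libraries comprised 3 labelled Empty, with the genotype Empty vector, 3 from the line SAM1 and 3 from the line SAM2, both with the genotype Hnrnpk_SAM. All were polyA+ RNA of WT MEFs grown in DMEM with serum. SAM stands for synergistic activation mediator, a system in which an inactive Cas9 and a guide RNA bring transcriptional activators to a chosen promoter, here that of Hnrnpk, which encodes an RNA-binding protein. According to the methods, the cells were transduced with the lentiviral vectors lentiMPHv2 and lentiSAMv2, and the cells surviving blasticidin and hygromycin were used. The control carried lentiSAMv2 with a non-targeting guide. The labels did not say which guide SAM1 or SAM2 carried, and the methods printed the same sequence for the second Hnrnpk guide and for the non-targeting guide. The labels did not say whether the libraries of a line, or of Empty, came from separate transductions or separate cultures. P-values for single lines therefore measure the spread between libraries, which may be technical. The pooled comparison below set the SAM1 and SAM2 libraries as 1 group against Empty. Its spread therefore also holds the difference between the lines, and a gene on which the lines differ can fail it. Whether more than 1 pool of selected cells stands behind the libraries of a line was not stated.

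Integrins are cell surface receptors made of 1 alpha and 1 beta chain, and the pair decides which matrix protein the receptor holds. They link collagens, laminins, fibronectin and other matrix proteins to the actin cytoskeleton through adaptor proteins of the focal adhesion. Laminins are secreted trimers of 1 alpha, 1 beta and 1 gamma chain that polymerize in basement membranes, and the alpha chain sets which integrins and dystroglycan can bind. Fibroblasts are known for beta1 and alphav integrins, for the collagen receptor alpha chain alpha11 and for the fibronectin receptor alpha5 beta1, while the beta4 and beta6 chains are typical of epithelia and the beta2 and beta7 chains of leukocytes.

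Values are normalized counts, that is, reads per gene divided by the DESeq2 size factor of the library, and differences are on the log2(normalized count + 1) scale with their SE. Libraries held from 41759636 to 49026626 reads on listed genes. Libraries of 1 group differed unevenly. The chi-square of the reads per gene was 11.5 to 13.8 between Empty libraries and 1.54 to 2.33 between SAM2 libraries, while SAM1 replicate 2 stood at 7.99 and 9.49 from replicates 1 and 3, which differed by 1.46. Hnrnpk, the targeted gene, measured 25773 ± 621 normalized counts in Empty, 23922 ± 264 in SAM1 and 26563 ± 321 in SAM2 (mean ± SD, n = 3 libraries each). Its pooled log2 difference was -0.032 (adjusted p = 0.642), and quantile normalization turned it to 0.16. By line it was -0.11 in SAM1 (adjusted p = 0.00252), which quantile normalization turned to 0.094, and 0.044 in SAM2 (adjusted p = 0.159). The paper reports Hnrnpk overexpression in its Hnrnpk-SAM MEFs by qRT-PCR and Western blot. Directions below therefore belong to the libraries labelled Hnrnpk_SAM and not to a level of Hnrnpk measured in them. All 10 fibroblast markers were listed, with sums of 651780 to 699040 normalized counts in Empty, 577582 to 580968 in SAM1 and 713547 to 734101 in SAM2. At an adjusted p below 0.05, 3 of them were higher and 7 lower in SAM1 than in Empty, and 3 higher and 4 lower in SAM2. In bulk RNA, fewer cells of a type and less RNA per cell cannot be told apart.

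Against Empty, the chains did not move as one group. In the 6 libraries labelled Hnrnpk_SAM, 11 members rose and 7 fell past an adjusted p of 0.05, while 13 did not pass, and 53.9% of all genes tested passed in this comparison (26.8% higher and 27% lower). SAM1 alone had 16 members higher and 11 lower, 27 in all, against a background of 74.3% of all genes (37.3% higher and 36.9% lower). SAM2 alone had 14 higher and 13 lower, also 27 in all, against 70.5% (35.2% higher and 35.3% lower). Between the lines, 11 members were higher in SAM2 and 13 lower, 24 in all, against 60.3% of all genes (31.1% higher and 29.2% lower). The libraries of the groups did not overlap for 18 members in the pooled comparison (53.1% of all genes), for 27 in SAM1 (74.4%), for 26 in SAM2 (73.5%) and for 26 between the lines (68.2%). The median difference of the members was 0.12 in the pooled comparison, 0.11 for SAM1 and -0.066 for SAM2, and the median over all genes was 0.0087, 0.0093 and -0.0015. The median absolute difference was 0.61 in SAM1 and 0.51 in SAM2, beside 0.38 and 0.33 over all genes. A difference of 2-fold or more that passed the test was seen for 11 members in SAM1 (17.8% of all genes), for 6 in SAM2 (13.3%), for 8 between the lines (9.54%) and for 6 in the pooled comparison (12.7%). The lines were compared with the same Empty libraries, so their differences from Empty share that error. Not all members could pass or fail freely, because the authors kept genes above 10 normalized counts in at least 3 libraries. Itgal and Itgb6 passed that filter through SAM1 only and Lamb3 through SAM1 and SAM2 only, and these 3 had to differ. Itga4 and Lama3 were also not above 10 in every library. The 26 members above 10 in every library had 8 called differences of 2-fold or more in SAM1 and 5 in SAM2. They had 6 between the lines and 5 in the pooled comparison. Of the 13171 genes above 10 in every library, 1660, 1253, 736 and 1237 had such a difference, in the same order. Of these 26 members, 12 were higher and 11 lower in SAM1, beside 4691 higher and 5374 lower of those 13171 genes. In SAM2, 13 of the members were higher and 13 lower, beside 4720 and 5004 of those genes. The median difference of the 26 members was 0.034 in the pooled comparison, -0.015 for SAM1 and -0.0092 for SAM2, so the SAM1 median changed sign. Without SAM1 replicate 2, the members called were 18 in the pooled comparison, 26 in SAM1, 27 in SAM2 and 24 between the lines. Of all 15184 genes, 8133, 11061, 10893 and 8748 were then called, in the same order of comparisons.

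**Figure D1:**
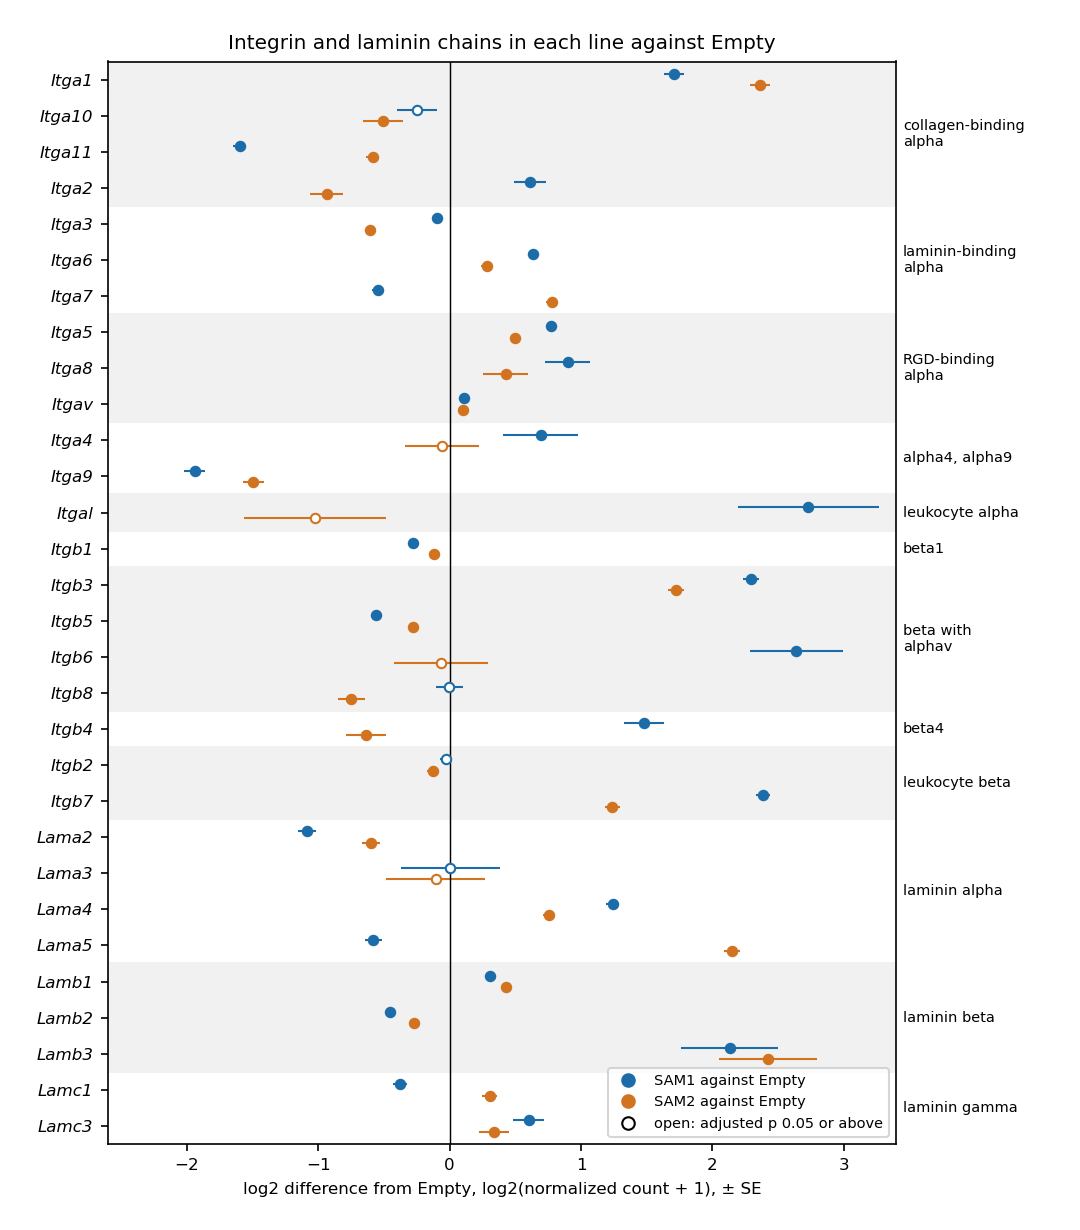
Log2 difference from Empty of the integrin and laminin chains reported by name, with the SE, for SAM1 (blue) and SAM2 (orange), 3 libraries per group. Open points have an adjusted p of 0.05 or above. Itga9 lies near -1.94 and -1.49 and Itgb3 near 2.29 and 1.72, while Itga2, Itga7, Itgb4, Lama5 and Lamc1 lie on opposite sides of 0 in the lines.

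The promoter stretches of 5 members are printed as examples of the directions described below, the neighbouring genes Itga1 and Itga2, the collagen receptor chain Itga11 that fell in both lines, Itgb7 that rose in both, and Lama5 that rose in SAM2 and fell in SAM1. The sequences are from RefSeq promoter windows of GRCm38.p6, whose positions are given in that build, in which 20 of the 31 members were matched, and end just before the start of the gene in RefSeq or in GENCODE, whichever comes first. Capitals mark motif matches. Itga1 is at chr13:115102142-115102214 and Itga2 at chr13:114932101-114932350, both on the minus strand. Itga11 is at chr9:62677605-62677825 on the plus strand, and Itgb7 at chr15:102231945-102232185 and Lama5 at chr2:180225920-180226109 are on the minus strand.
Itga1: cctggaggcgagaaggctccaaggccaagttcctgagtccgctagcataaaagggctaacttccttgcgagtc
Itga2: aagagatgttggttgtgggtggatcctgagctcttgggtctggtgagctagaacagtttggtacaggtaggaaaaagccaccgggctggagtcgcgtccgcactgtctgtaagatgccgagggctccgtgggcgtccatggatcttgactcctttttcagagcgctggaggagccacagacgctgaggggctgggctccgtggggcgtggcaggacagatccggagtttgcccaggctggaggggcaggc
Itga11: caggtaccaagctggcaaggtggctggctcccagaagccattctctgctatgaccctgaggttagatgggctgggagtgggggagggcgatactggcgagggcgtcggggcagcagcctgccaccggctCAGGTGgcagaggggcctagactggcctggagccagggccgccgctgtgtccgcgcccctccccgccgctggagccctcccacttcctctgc
Itgb7: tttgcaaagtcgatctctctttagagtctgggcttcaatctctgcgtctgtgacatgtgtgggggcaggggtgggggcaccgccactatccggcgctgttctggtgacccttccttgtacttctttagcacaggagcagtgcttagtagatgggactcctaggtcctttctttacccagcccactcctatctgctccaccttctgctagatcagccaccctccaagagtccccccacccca
Lama5: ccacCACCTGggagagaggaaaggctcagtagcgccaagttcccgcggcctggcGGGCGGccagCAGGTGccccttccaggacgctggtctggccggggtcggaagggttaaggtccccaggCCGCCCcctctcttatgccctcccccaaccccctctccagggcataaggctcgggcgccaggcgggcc

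The motifs searched on both strands of the 250 bases before each RefSeq start were the AP-1 site TGANTCA, the TEAD site GGAATG, the SP1 GC box GGGCGG, the CAC E-box CACCTG, the TATA box TATAAA and the CArG box. The stretches of Itga1, Itga2 and Itgb7 held none of them. The Itga11 stretch held 1 E-box, and the Lama5 stretch held 2 GC boxes and 2 E-boxes, with 71.1% G and C. Of the 20 members matched, 8 had the E-box in any of their windows and 7 had the GC box. Of the 32851 single windows of the table, 17.2% had the E-box and 32.7% the GC box. The 20 members had 23 windows, with more than 1 for Itga3, Itgb6 and Lamb3, all among the 8. Counts of members and shares of windows are therefore unlike measures and show no enrichment. No member had the AP-1 site or the TATA box in these windows, which 6.75% and 12.4% of all windows had. The TEAD site was found in Itga10, Itgb1 and Lamb3 (12.6% of all windows) and the CArG box in Itgb6 and Lama2 (1.47%). The letters found describe the windows and say nothing of a factor bound there, and the windows of Itga9, of 1 Itgb6 start and of 1 Itga3 start lay far from the canonical start in GENCODE, and these windows are included in the counts.

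Among the collagen-binding alpha chains, Itga1 rose in both lines, Itga11 fell in both, and Itga2 rose in SAM1 and fell in SAM2. Itga1, which pairs with beta1 and prefers the collagen of basement membranes, lies on chr13:115089632-115238677 in GRCm39. Its normalized counts were 124, 111 and 116 in Empty, 405, 349 and 399 in SAM1, and 633, 576 and 605 in SAM2. The 3 groups did not overlap, with Empty lowest and SAM2 highest. The rise was 1.71 ± 0.076 in SAM1 (adjusted p = 2.19e-10), 2.36 ± 0.076 in SAM2 (adjusted p = 1.44e-11) and 2.03 ± 0.20 in the pooled comparison (adjusted p = 2.44e-05). Itga2, a receptor chain for fibrillar collagen, lies at chr13:114969617-115068636 on the same minus strand, and starts 21.0 kb downstream of the end of Itga1. It measured 201, 151 and 224 in Empty, 301, 266 and 304 in SAM1, and 101, 96.4 and 98.4 in SAM2. Here SAM1 was highest and SAM2 lowest, again with no overlap. Itga2 rose by 0.61 ± 0.12 in SAM1 (adjusted p = 0.000551) and fell by 0.94 ± 0.12 in SAM2 (adjusted p = 1.42e-05), and the lines differed by -1.55 ± 0.12 (adjusted p = 2.15e-07). The pooled log2 difference of Itga2 was -0.16 (adjusted p = 0.781). Mocs2, on the opposite strand, shares 10.2% of the exon bases of Itga1 and 6.2% of those of Itga2, and measured 2483, 2305 and 2091 normalized counts in Empty, SAM1 and SAM2. The paper's methods name a directional library kit, but the strand setting of the counting was not given in the sources used here. The part of Mocs2 in these counts was not tested. The listed genes starting within 2 Mb of Itga1, 13 in number, had a median difference of 0.11 in SAM1 and 0.0068 in SAM2.

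Itga11, the alpha chain that fibroblasts use on fibrillar collagen, was the most abundant of the collagen-binding chains per kb of exon in every group. It lies on chr9:62585108-62691617. Its counts were 5492, 4665 and 4883 in Empty, 1683, 1588 and 1688 in SAM1, and 3359, 3277 and 3363 in SAM2. Empty was highest, SAM1 lowest, and no groups overlapped. Itga11 fell by 1.60 ± 0.051 in SAM1 (adjusted p = 8.85e-12), by 0.59 ± 0.051 in SAM2 (adjusted p = 2.73e-07) and by 1.09 ± 0.29 in the pooled comparison (adjusted p = 0.0104). Its share of the summed level per kb of the 4 collagen-binding chains was 94.7% ± 0.60 in Empty, 79.3% ± 0.67 in SAM1 and 91.3% ± 0.28 in SAM2 (SD, n = 3). Itga10, a collagen receptor chain known from cartilage, was low, with a range of 42.7 to 74.6 normalized counts over the 9 libraries. It fell in SAM2, by 0.51 ± 0.15 (adjusted p = 0.00821), and its difference in SAM1 was -0.25 ± 0.15 (adjusted p = 0.15). Gm42957, a gene on the same strand that was not listed, shares 33.5% of the exon bases of Itga10. The effect of this overlap on the Itga10 counts was not tested. The summed level per kb of the 4 chains was 859 ± 71.0 in Empty, 338 ± 14.3 in SAM1 and 592 ± 10.4 in SAM2.

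**Figure D2:**
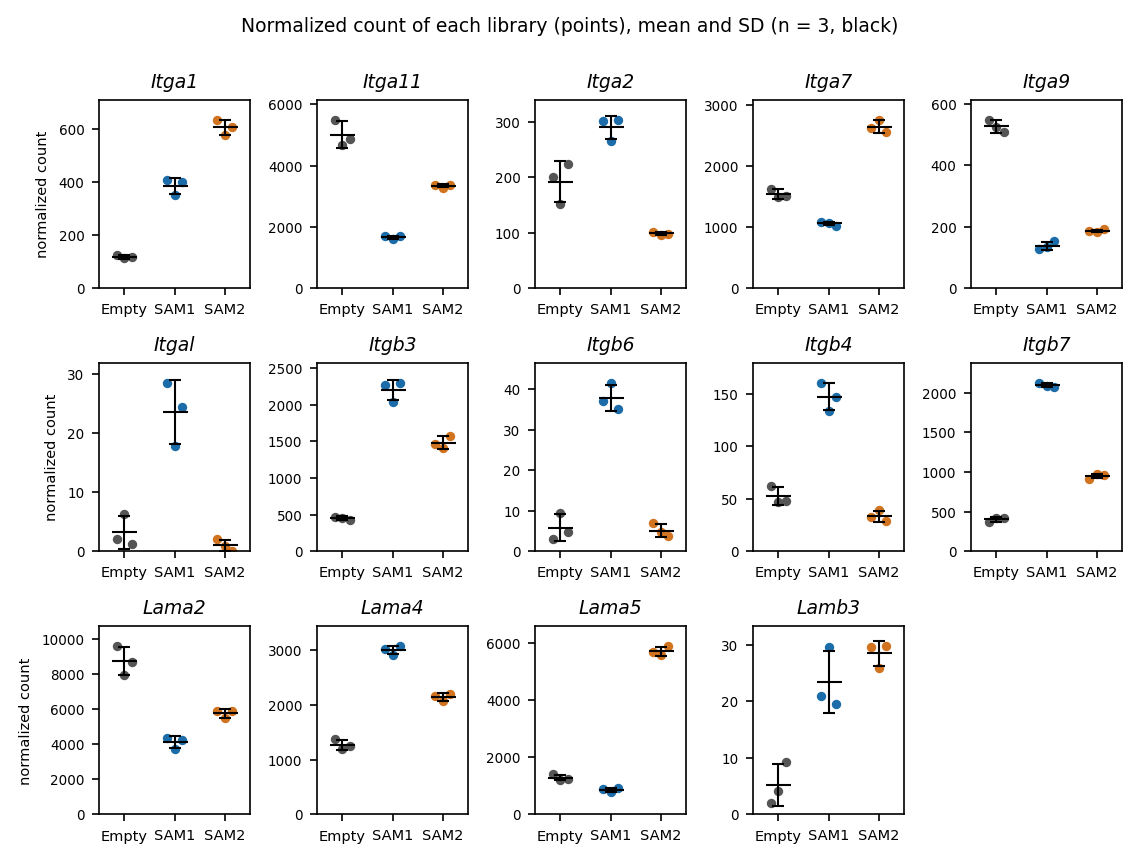
Normalized count of each library (points) for the 14 members with a difference of 2-fold or more past the test in any comparison, with the mean and SD of each group in black. Itgal, Itgb6 and Lamb3 were in the table only through the groups where they are high, so they had to differ. Axes start at 0 and differ between panels. Itga9, Itga11 and Lama2 are highest in Empty, Itgb7 and Itgb3 are highest in SAM1, and Lama5 lies at 5574 to 5871 in SAM2 and at 1402 or less elsewhere.

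The laminin-binding alpha chains Itga3, Itga6 and Itga7 differed from one another in direction. Itga3, the most abundant of them per kb, had counts of 7813, 7323 and 7376 in Empty, 7131, 6777 and 7197 in SAM1, and 4865, 4968 and 4985 in SAM2. It was lowest in SAM2 and highest in Empty. Itga3 fell by 0.60 ± 0.034 in SAM2 (adjusted p = 3.33e-09). Its difference in SAM1 was -0.093 ± 0.034 (adjusted p = 0.024), which quantile normalization turned to 0.032 and which did not pass without Empty replicate 1 (adjusted p = 0.0984) or SAM1 replicate 2 (adjusted p = 0.0873). The pooled difference of -0.35 ± 0.15 did not pass (adjusted p = 0.0742) although the groups did not overlap. Itga6, which pairs with beta1 or beta4, rose in both lines, by 0.64 ± 0.042 in SAM1 (adjusted p = 1.28e-08) and by 0.28 ± 0.042 in SAM2 (adjusted p = 4.22e-05). Itga7, the laminin receptor chain known best from muscle, lies on chr10:128769621-128794169. It measured 1633, 1488 and 1512 in Empty, 1079, 1073 and 1023 in SAM1, and 2626, 2760 and 2555 in SAM2. SAM2 was highest and SAM1 lowest, with no overlap between groups. Itga7 fell by 0.54 ± 0.045 in SAM1 (adjusted p = 1.38e-07) and rose by 0.78 ± 0.045 in SAM2 (adjusted p = 4.89e-09), and the lines differed by 1.32 ± 0.045 (adjusted p = 6.63e-11). Itga3 made up 75.2% ± 0.10 of the level per kb of the 3 chains in Empty, 70.8% ± 0.46 in SAM1 and 58.2% ± 0.19 in SAM2. Over the same groups the share of Itga7 was 10.9% ± 0.15, 7.49% ± 0.36 and 21.9% ± 0.89. These shares depended on the length used. With canonical transcript lengths, Itga3 made up 60.4%, 53.9% and 41.6%, in the same order of groups, and Itga6 made up 24.55%, 36.3% and 31.3%. Skeletal muscle markers also differed between the groups, but not in the directions of Itga7. Of 7 such markers, 2 were listed, led by Acta1, while Myod1, Myog, Myf5, Pax7 and Ckm were not, and their sum was 88.8 to 127 normalized counts in Empty, 338 to 365 in SAM1 and 412 to 457 in SAM2. Against Empty, 2 of these markers were called higher and 0 lower in SAM1, where Itga7 fell. In SAM2 2 were called higher and 0 lower. The part of these markers in the Itga7 values was not tested.

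Itgb4, the partner of alpha6 in the hemidesmosomes of epithelia, was low and moved in opposite directions in the lines. It lies on chr11:115865333-115899239. Its counts were 62.4, 47.3 and 47.9 in Empty, 160, 134 and 147 in SAM1, and 32.6, 38.9 and 28.8 in SAM2. SAM1 lay above Empty and SAM2 below it in every library. Itgb4 rose by 1.48 ± 0.15 in SAM1 (adjusted p = 1.21e-06) and fell by 0.63 ± 0.15 in SAM2 (adjusted p = 0.00224), and the lines differed by -2.11 ± 0.15 (adjusted p = 8.32e-08). Galk1, a gene on the opposite strand, shares 14.9% of the exon bases of Itgb4 and measured 3519 normalized counts in Empty, 2753 in SAM1 and 2849 in SAM2. Galk1 was lower in SAM1 and in SAM2 than in Empty, and its part in the counts of Itgb4 was not tested. In sum, epithelial markers were also highest in SAM1. Of 8 such markers, 4 were listed, led by Krt19, while Epcam, Krt5, Krt14 and Krt18 were not. Their sum was 2247 to 2428 normalized counts in Empty, 7209 to 7734 in SAM1 and 2832 to 2918 in SAM2, and their part in the epithelial chains was not tested. Against Empty, all 4 were called higher in SAM1, while in SAM2 1 was called higher and 1 lower.

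The alpha chains that bind the RGD motif of fibronectin, vitronectin and nephronectin rose in both lines. Itga5, the fibronectin receptor chain and the most abundant alpha chain per kb, had counts of 13231, 12736 and 12554 in Empty, 21910, 21528 and 22309 in SAM1, and 18030, 18011 and 18409 in SAM2. Every library of SAM1 lay above every library of SAM2, and both lay above Empty. Itga5 rose by 0.77 ± 0.028 in SAM1 (adjusted p = 3.13e-11), by 0.50 ± 0.028 in SAM2 (adjusted p = 3.41e-09) and by 0.64 ± 0.083 in the pooled comparison (adjusted p = 0.000166). Itgav, the alpha chain shared by the vitronectin receptors, rose little, by 0.11 ± 0.032 in SAM1 (adjusted p = 0.00698) and by 0.10 ± 0.032 in SAM2 (adjusted p = 0.0132), with a range of 12610 to 14310 over the 9 libraries. Without SAM2 replicate 3 the SAM2 value did not pass (adjusted p = 0.063). Itga8, a nephronectin receptor chain, was low, at 85.9, 59.9 and 53.7 in Empty, 125, 108 and 136 in SAM1, and 98.9, 74.2 and 92.8 in SAM2. SAM1 did not overlap Empty, while SAM2 did. The rise of Itga8 was 0.90 ± 0.17 in SAM1 (adjusted p = 0.000353) and 0.43 ± 0.17 in SAM2 (adjusted p = 0.0399). The SAM2 call was lost with quantile normalization (0.30, adjusted p = 0.122), limma without the trend (adjusted p = 0.0798), edgeR (adjusted p = 0.0587) and DESeq2 (adjusted p = 0.0593), and without Empty replicate 2 or 3, SAM1 replicate 1, or SAM2 replicate 1 or 3, with adjusted p from 0.0523 to 0.172.

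Among the beta chains that pair with alphav, Itgb3 rose in both lines and Itgb5 fell in both. Itgb3, the chain of the vitronectin receptor, lies on chr11:104498826-104561302. It measured 470, 457 and 419 in Empty, 2274, 2042 and 2297 in SAM1, and 1469, 1407 and 1577 in SAM2. Empty was lowest and SAM1 highest, with no overlap. Itgb3 rose by 2.29 ± 0.060 in SAM1 (adjusted p = 1.33e-12), by 1.72 ± 0.060 in SAM2 (adjusted p = 3.52e-11) and by 2.01 ± 0.17 in the pooled comparison (adjusted p = 1.03e-05). Itgb5, the most abundant of these chains per kb, had counts of 14162, 15058 and 14289 in Empty, 9768, 9983 and 9725 in SAM1, and 11846, 12001 and 11994 in SAM2. Both lines lay below Empty, with SAM1 lowest. Itgb5 fell by 0.56 ± 0.029 in SAM1 (adjusted p = 9.86e-10) and by 0.28 ± 0.029 in SAM2 (adjusted p = 1.44e-06). Per kb of exon, Itgb3 made up 3.16% ± 0.19 of the 4 chains Itgb3, Itgb5, Itgb6 and Itgb8 in Empty, 19.0% ± 1.18 in SAM1 and 11.6% ± 0.58 in SAM2, and Itgb5 made up 95.7% ± 0.30, 79.3% ± 1.29 and 87.6% ± 0.64. With canonical transcript lengths in place of all exon bases, the share of Itgb3 was 1.74%, 11.3% and 6.64%, in the same order of groups.

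Itgb6 and Itgb8, whose receptors with alphav release active TGF-beta, were low. Itgb6, the epithelial chain of the pair, had counts of 3.07, 9.45 and 4.67 in Empty, 37.0, 41.5 and 35.2 in SAM1, and 6.92, 4.64 and 3.71 in SAM2. SAM1 lay above the other groups, which overlapped each other. Because Itgb6 was in the table through SAM1 alone, its rise there is a description. It had 117 reads in SAM1 and 16 in each of Empty and SAM2, a ratio of 6.59 to Empty (95% interval 3.89 to 11.9, exact and for counting error only). Itgb8 fell in SAM2, by 0.75 ± 0.10 (adjusted p = 1.85e-05), with 167, 150 and 180 normalized counts there beside 254 to 311 in Empty. In SAM1 its difference was -0.0022 ± 0.10 (adjusted p = 0.986), and its SAM1 libraries lay within the range of Empty apart from 1 at 247. The 4 listed genes starting within 2 Mb of Itgb8 had a median difference of -0.61 in SAM1 and -0.83 in SAM2, and their part in the Itgb8 value was not tested.

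Itgb1, the common beta chain of the collagen, laminin and fibronectin receptors, was the most abundant member per kb in every group. Its counts were 112456, 109120 and 112956 in Empty, 93282, 89518 and 93240 in SAM1, and 103159, 102481 and 102503 in SAM2. Empty was highest and SAM1 lowest, and no groups overlapped. Itgb1 fell by 0.28 ± 0.028 in SAM1 (adjusted p = 9.46e-07) and by 0.12 ± 0.028 in SAM2 (adjusted p = 0.00196), but with quantile normalization it rose in SAM2, by 0.20 (adjusted p = 8.13e-05), and did not pass in SAM1 (adjusted p = 0.518). The small differences of Itgb1, like that of Itga3 in SAM1, therefore depended on how libraries were scaled. Itgb1 made up 88.2% ± 0.51 of the level per kb of the 8 beta chains in Empty, 85.1% ± 0.30 in SAM1 and 87.5% ± 0.17 in SAM2.

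Itga9, a receptor chain for tenascin and osteopontin that pairs with beta1, fell in both lines. It lies on chr9:118435722-118730072. Its counts were 548, 525 and 508 in Empty, 126, 132 and 152 in SAM1, and 185, 184 and 191 in SAM2. Every Empty library stood more than 2-fold above every library of either line, and SAM1 was lowest. Itga9 fell by 1.94 ± 0.079 in SAM1 (adjusted p = 9.32e-11), by 1.49 ± 0.079 in SAM2 (adjusted p = 1.9e-09) and by 1.72 ± 0.15 in the pooled comparison (adjusted p = 1.06e-05). Its 32 listed neighbours within 2 Mb had a median of -0.088 in SAM1 and -0.28 in SAM2. Itga4, the related chain that binds fibronectin and the endothelial ligand Vcam1, was near the filter, at 14.3, 11.6 and 8.18 in Empty, 19.9, 14.8 and 21.5 in SAM1, and 12.9, 8.35 and 11.1 in SAM2. Its rise of 0.69 ± 0.28 in SAM1 (adjusted p = 0.041) did not pass with DESeq2 (adjusted p = 0.119), and quantile normalization took it to 0.11 (adjusted p = 0.741). It also did not pass without Empty replicate 2 or 3, SAM1 replicate 1 or 3, or SAM2 replicate 3, with adjusted p from 0.0503 to 0.144. Cerkl, on the opposite strand and not listed, shares 20.8% of the exon bases of Itga4, and its part in these counts was not tested.

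Of the chains typical of leukocytes, Itgb7 moved furthest among those measured well above the filter. Itgb7, which pairs with alpha4 or alphaE in lymphocytes of the gut, lies on chr15:102124429-102140379. It measured 365, 423 and 415 in Empty, 2121, 2090 and 2069 in SAM1, and 915, 969 and 956 in SAM2. SAM1 was highest and Empty lowest, with no overlap. Itgb7 rose by 2.38 ± 0.055 in SAM1 (adjusted p = 3.77e-13), by 1.24 ± 0.055 in SAM2 (adjusted p = 3.31e-10) and by 1.81 ± 0.33 in the pooled comparison (adjusted p = 0.00123). Of its alpha partners, Itgae was not listed and Itga4 did not exceed 21.5 normalized counts. Itgb2, the common beta chain of leukocyte integrins and per kb the more abundant of the pair in Empty, had counts of 678, 679 and 672 in Empty, 678, 675 and 639 in SAM1, and 602, 622 and 631 in SAM2. Only the SAM2 libraries all lay below those of Empty, with a fall of 0.13 ± 0.046 (adjusted p = 0.0231) that did not pass with DESeq2 (adjusted p = 0.0732) or without SAM2 replicate 1 (adjusted p = 0.0876). Itgal, an alpha partner of beta2, had counts of 2.05, 6.30 and 1.17 in Empty, 28.5, 17.8 and 24.4 in SAM1, and 1.98, 0.927 and 0 in SAM2. The SAM1 libraries were the only ones above 10, so Itgal was in the table through them alone. Its reads summed to 9 in Empty, 73 in SAM1 and 3 in SAM2, which gave a ratio of SAM1 to SAM2 of 24.9 (95% interval 8.2 to 124) and of SAM1 to Empty of 7.31 (3.65 to 16.6). The SAM2 library without a read allows up to 3 reads, or 2.78 normalized counts. In sum, leukocyte markers were also highest in SAM1. Of 8 such markers, 4 were listed, led by Cd14, while Ptprc, Adgre1 and Cd3e were among those not listed. The sum of the listed markers was 1487 to 1524 normalized counts in Empty, 2513 to 2673 in SAM1 and 1756 to 1775 in SAM2. Against Empty, 3 of the 4 were called higher and 0 lower in SAM1. In SAM2, 2 were called higher and 2 lower, with a median log2 difference of -0.22 although the sum was higher. Their part in the leukocyte chains was not tested.

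The laminin alpha chains changed their order of abundance between groups. Lama2, the chain of muscle and of mesenchymal basement membranes, fell in both lines. It lies on chr10:26856032-27495754. Its counts were 9601, 7980 and 8700 in Empty, 4356, 3752 and 4274 in SAM1, and 5903, 5501 and 5914 in SAM2. Empty was highest and SAM1 lowest. Lama2 fell by 1.08 ± 0.066 in SAM1 (adjusted p = 5.43e-09), by 0.60 ± 0.066 in SAM2 (adjusted p = 2.62e-06) and by 0.84 ± 0.15 in the pooled comparison (adjusted p = 0.00125). Lama4, a chain known from vessel walls, is on the same chromosome at chr10:38841141-38998403 and rose in both lines. It measured 1372, 1197 and 1246 in Empty, 3018, 2918 and 3066 in SAM1, and 2170, 2066 and 2202 in SAM2. SAM1 was highest and Empty lowest. Lama4 rose by 1.24 ± 0.048 in SAM1 (adjusted p = 6.17e-11), by 0.76 ± 0.048 in SAM2 (adjusted p = 1.25e-08) and by 1.0 ± 0.15 in the pooled comparison (adjusted p = 0.000318).

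Lama5, the broadly expressed chain of epithelial and vascular basement membranes, lies on chr2:179818166-179867712 and separated the lines more than any other laminin chain. Its counts were 1402, 1210 and 1252 in Empty, 895, 779 and 911 in SAM1, and 5668, 5574 and 5871 in SAM2. SAM1 lay below Empty and SAM2 far above it, with no overlap. Lama5 fell by 0.58 ± 0.063 in SAM1 (adjusted p = 2.06e-06) and rose by 2.15 ± 0.063 in SAM2 (adjusted p = 6.71e-12), which is 4.43-fold. The lines differed by 2.73 ± 0.063 (adjusted p = 1.94e-12), and the pooled log2 difference of 0.78 ± 0.77 did not pass (adjusted p = 0.419). Its 44 listed neighbours within 2 Mb had a median of -0.11 in SAM1 and -0.20 in SAM2, and Adrm1, which overlaps its exons by 85 bases, measured 887, 925 and 785 normalized counts in Empty, SAM1 and SAM2. Lama3, the alpha chain of epithelial anchoring laminin, stayed between 5.57 and 13.9 in all 9 libraries, with a pooled difference of -0.051 ± 0.33 (adjusted p = 0.907), and a change was not detectable at this depth. Endothelial markers differed between the groups too. Of 8 such markers, 5 were listed, led by Kdr, while Emcn, Tie1 and Cldn5 were not. Their sum was 428 to 468 normalized counts in Empty, 4922 to 5343 in SAM1 and 907 to 977 in SAM2, and their part in the values of Lama4 and Lama5 was not tested. Of the 5, 3 were called higher and 0 lower in SAM1, where 1 lay below Empty without overlap. In SAM2, 3 were called higher and 1 lower. Markers of Schwann and neural cells, of which 4 of 7 were listed and Sox10, Sox2 and Gfap were not, summed to 2197 to 2358, 8998 to 9169 and 8276 to 8463, led by Nes. In SAM1, 3 of these 4 were called higher and 0 lower, and in SAM2 2 were higher and 1 lower.

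Per kb of exon, Lama2 made up 71.7% ± 0.57 of the laminin alpha chains in Empty, 46.4% ± 1.07 in SAM1 and 33.8% ± 0.54 in SAM2. Lama4 made up 11.8% ± 0.23, 38.4% ± 1.41 and 14.2% ± 0.073, and Lama5 made up 16.4% ± 0.31, 15.1% ± 0.41 and 52.0% ± 0.58. Thus Lama2 led in Empty, Lama4 had its largest share in SAM1 and Lama5 in SAM2. The order within a line depended on the length used. With canonical transcript lengths, Lama4 (49.8%) exceeded Lama2 (42.6%) in SAM1, and Lama2 (41.1%) exceeded Lama5 (34.4%) in SAM2. The summed level per kb of the alpha chains was 685 ± 59.8 in Empty, 498 ± 29.1 in SAM1 and 959 ± 29.0 in SAM2.

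**Figure D3:**
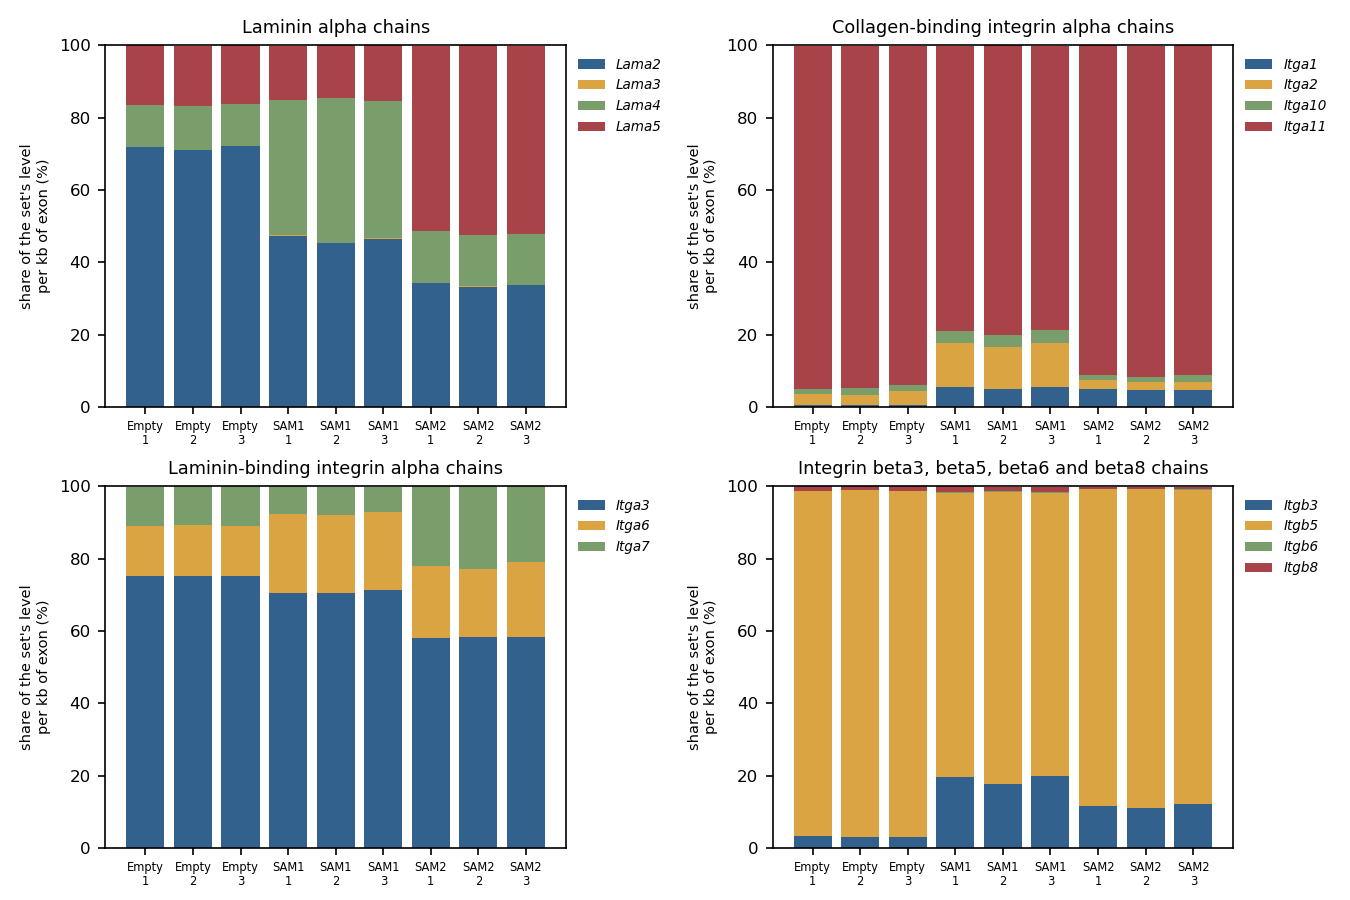
Share of each chain in the summed level per kb of exon of its set, for each of the 9 libraries, in 4 sets of chains that can take each other's place in a receptor or trimer. Lama5 takes about 52% of the laminin alpha chains in each SAM2 library and Lama4 about 38% in SAM1, while Itga11 and Itgb5 lead their sets in every library.

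Among the beta chains, Lamb1 rose and Lamb2 fell in both lines. Lamb1, the beta chain of most embryonic laminins, rose by 0.31 ± 0.032 in SAM1 (adjusted p = 1.51e-06) and by 0.43 ± 0.032 in SAM2 (adjusted p = 6.13e-08), from 14340 to 15203 in Empty to 17425 to 20074 in the lines. Lamb2, the beta chain of neuromuscular and kidney laminins, was the most abundant laminin chain per kb in Empty, with counts of 11876, 11773 and 11287 there, 8623, 8213 and 8708 in SAM1, and 9662, 9562 and 9725 in SAM2. It was lower in every library of the lines. Lamb2 fell by 0.45 ± 0.031 in SAM1 (adjusted p = 1.77e-08) and by 0.27 ± 0.031 in SAM2 (adjusted p = 3.56e-06). Lamb2 therefore led Lamb1 per kb in Empty, with 58.3% ± 0.69 of the beta chains, and Lamb1 led in SAM1 with 54.7% ± 0.089 and in SAM2 with 53.7% ± 0.24. With canonical lengths Lamb1 already led in Empty, with 55.0%. Lamb3, the beta chain of epithelial anchoring laminin, had counts of 2.05, 4.2 and 9.35 in Empty, 20.9, 29.6 and 19.5 in SAM1, and 29.7, 26.0 and 29.7 in SAM2. Both lines lay above Empty and overlapped each other, and this gene passed the filter through the lines alone. With 14 reads in Empty, 72 in SAM1 and 90 in SAM2, the ratios to Empty were 4.64 (95% interval 2.59 to 8.90) and 5.65 (3.2 to 10.8). G0s2, on the opposite strand, shares 119 exon bases with Lamb3 and measured 3.66, 18.5 and 44.9 normalized counts in Empty, SAM1 and SAM2, and its part in the Lamb3 counts was not tested.

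Lamc1, the gamma chain shared by most laminins, had counts of 11860, 10175 and 10909 in Empty, 8690, 7791 and 8829 in SAM1, and 13626, 13207 and 13755 in SAM2. SAM2 was highest and SAM1 lowest, with no overlap. It fell by 0.38 ± 0.054 in SAM1 (adjusted p = 2.86e-05) and rose by 0.30 ± 0.054 in SAM2 (adjusted p = 0.000228), and the pooled log2 difference was -0.038 (adjusted p = 0.885). Lamc3 was low, from 43.2 to 71.3 over all libraries, and rose by 0.60 ± 0.12 in SAM1 (adjusted p = 0.000406) and by 0.34 ± 0.12 in SAM2 (adjusted p = 0.0202), the latter not passing with edgeR (adjusted p = 0.0567), with DESeq2 (adjusted p = 0.138), with quantile normalization (adjusted p = 0.102) or without SAM2 replicate 2 (adjusted p = 0.0563). With quantile normalization the SAM1 value did not pass either (adjusted p = 0.19).

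Genes that work with these chains were counted from lists written by hand, with the share of all genes called in the pooled comparison at 53.9%. Of the 36 listed adaptors and focal adhesion proteins, 9 rose, 10 fell and 17 did not pass, with a median of -0.012. Ptk2b, a kinase related to focal adhesion kinase, rose by 2.47 ± 0.12 (adjusted p = 3e-07), Parvb, an adaptor that binds integrin-linked kinase, rose by 1.66 ± 0.26 (adjusted p = 0.000476), and Kank1, which sits at the rim of focal adhesions, rose by 1.57 ± 0.052 (adjusted p = 3.33e-08). The falls were led by Vasp, an actin polymerase of the adhesion, at -0.74 ± 0.043 (adjusted p = 8.83e-07), Actn1, the alpha-actinin that ties integrins to actin, at -0.63 ± 0.075 (adjusted p = 8.47e-05), and Ilk, the integrin-linked kinase itself, at -0.57 ± 0.030 (adjusted p = 5.65e-07).

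Of the 19 listed integrin ligands other than collagens and laminins, 6 rose, 8 fell and 5 did not pass, with a median of -0.21. Npnt, the nephronectin bound by alpha8 beta1, rose by 1.87 ± 0.23 (adjusted p = 9.69e-05), from 357 ± 15.9 normalized counts in Empty to 1711 ± 78.3 in SAM1 and 996 ± 23.7 in SAM2. Thbs2, a thrombospondin, rose by 1.09 ± 0.042 (adjusted p = 7.6e-08) and Fbn1, the main fibrillin of microfibrils, by 0.98 ± 0.19 (adjusted p = 0.00163). Edil3, an RGD protein bound by alphav integrins, fell by 1.85 ± 0.13 (adjusted p = 3.58e-06), and the matricellular genes Ccn3 and Ccn2 fell by 1.23 ± 0.24 (adjusted p = 0.00202) and 0.94 ± 0.14 (adjusted p = 0.000421).

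The list of basement membrane partners of laminins had the largest median of the 4 lists, at 0.71, with 13 of 24 listed genes higher, 4 lower and 7 not passing. Differences of 2-fold or more that passed were seen for 12 of them, beside 12.7% of all genes. Dmd, which encodes dystrophin, rose from 1.42 ± 0.54 normalized counts in Empty to 113 ± 1.85 in SAM1 and 18.6 ± 2.42 in SAM2. Col15a1, a basement membrane zone collagen, went from 4.11 ± 3.52 to 68.9 ± 2.54 and 27.4 ± 6.20, and Smoc1, a matricellular protein of basement membranes, from 8.25 ± 0.93 to 42.3 ± 5.70 and 36.0 ± 5.54. These 3 were below 10 on average in Empty and passed the filter of the table through the lines. The filter thus fixed their direction, and their rise is a description. The counts and the median of this list include these 3 and were not recomputed without them. Among the falls, Agrn, the proteoglycan agrin that ties laminin to dystroglycan, went from 12977 ± 464 to 3455 ± 187 and 5390 ± 78.8, a pooled difference of -1.59 ± 0.19 (adjusted p = 8.03e-05). Sgcb, a sarcoglycan, fell by 1.04 ± 0.16 (adjusted p = 0.000445), and Dag1, which encodes dystroglycan, a laminin receptor outside the integrin family, fell by 0.67 ± 0.11 (adjusted p = 0.000564).

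Of the 15 membrane partners of integrins, 1 rose, 9 fell and 5 did not pass, with a median of -0.22. Cd47, a partner of alphav beta3, rose by 0.14 ± 0.031 (adjusted p = 0.00441). Sdc2, a heparan sulfate proteoglycan that acts beside integrins, fell by 1.88 ± 0.16 (adjusted p = 8.89e-06), from 38935 ± 739 normalized counts in Empty to 8771 ± 92.8 in SAM1 and 12798 ± 115 in SAM2. The tetraspanins Cd81 and Cd151, of which Cd151 binds laminin-binding integrins, fell by 0.81 ± 0.16 (adjusted p = 0.0022) and 0.60 ± 0.080 (adjusted p = 0.000181).

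**Figure D4:**
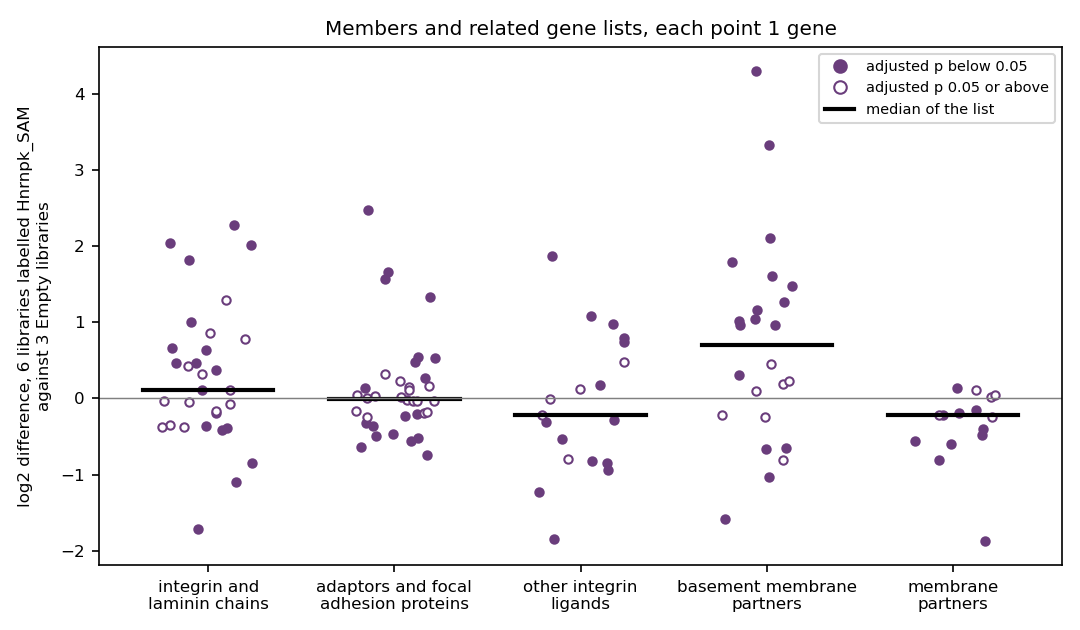
Log2 difference of the 6 libraries labelled Hnrnpk_SAM from the 3 Empty libraries, 1 point per gene, for the integrin and laminin chains and 4 lists of related genes. Filled points have an adjusted p below 0.05 and black lines are medians. The basement membrane partners have a median of 0.71, which includes Dmd, Col15a1 and Smoc1, in the table only through the lines. Sdc2 is the lowest membrane partner at -1.88.

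Position on the chromosome was described for every member by the median difference of the listed genes starting within 2 Mb. These medians ran from -0.61 at Itgb8 to 0.64 at Itgb1 in SAM1 and from -0.83 to 0.71, at the same genes, in SAM2, and their absolute size exceeded 0.3 for 6 members in SAM1 and 5 in SAM2. Between the lines the medians lay between -0.21 and 0.17. At Itgb3, Itgb7 and Lama4, which rose in both lines, the neighbour medians were -0.19, 0.18 and 0.12 in SAM1 and -0.17, 0.38 and 0.16 in SAM2. Exons of 19 members share bases with another annotated gene, and for 8 of them that gene was in the table.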

How the data were processed

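PolyA+ RNA was sequenced from 9 libraries, 3 per group. Per the labels and the methods, the authors checked reads with FastQC 0.11.0, aligned them with TopHat2 and Bowtie2 to GRCm39, counted genes with HTSeq on Gencode vM29, and divided the counts by DESeq2 size factors. The deposited values are this normalized signal, for genes above 10 in at least 30% of libraries. Dividing by the value of 1 read gave whole reads, within 0.001 reads, for 100% of values. The libraries were made with a directional kit, per the paper's methods, but the strand setting of the counting was not given in the sources used here.

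From these values, log2(value + 1) was tested with limma 3.58.1 (moderated statistic with a mean-variance trend, R 4.3.3), two-sided, with Benjamini-Hochberg adjustment over 15184 genes and a threshold of 0.05. The pooled comparison used 2 groups, and the comparisons of lines used 1 fit of 3 groups. The study's methods tested counts with DESeq2, and because the deposited values are normalized, DESeq2 1.42.0 and edgeR 4.0.16 on the recovered reads were run as alternatives, beside other pseudocounts, a filter, quantile normalization, a replicate block and leaving out each library. The fits were also run on simulated data, with changes in few genes and the same spread setting for every gene and group. The spread between the real libraries was uneven, so that run cannot show how the fits behave on these data. Levels between genes were compared per kb of GENCODE exon. Intervals of read ratios are exact and cover counting error only. Full values were given for members with a called difference of 2-fold or more in any comparison and for the most abundant member per kb of each role, and in each list of related genes up to 3 called genes per direction with the largest pooled difference were named. The members and lists were chosen with earlier results of these data known. A member gene and a marker gene are not reported here by name, and both are in the counts.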

Additional observations from a re-analysis of the deposited data

Results flagged for a closer look

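SAM1 and SAM2 share the Empty control and a genotype label, and each value below is the log2 level in SAM2 minus that in SAM1, called because limma's test of that difference itself had an adjusted p below 0.05. Outlying libraries within a group could not be tested with 3 libraries each.

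Among the integrin alpha chains, the collagen-binding Itga1 (0.65) and Itga11 (1.01) and the laminin-binding Itga7 (1.32) were higher in SAM2, as was Itga9 (0.45). Itga2 (-1.55), Itga3 (-0.51), Itga4 (-0.75), Itga5 (-0.27), Itga6 (-0.35) and Itga8 (-0.47) were lower. The call of Itga4 was lost with quantile normalization (-0.35, adjusted p = 0.297), with DESeq2 (adjusted p = 0.0877) and without SAM1 replicate 1 or 3 or SAM2 replicate 2 or 3 (adjusted p from 0.0637 to 0.125). That of Itga8 was lost with quantile normalization (-0.23, adjusted p = 0.264), with limma without the trend (adjusted p = 0.0676) and without SAM1 replicate 1 or 3 or SAM2 replicate 2 (adjusted p from 0.0757 to 0.128). Of the beta chains, Itgb1 (0.16) and Itgb5 (0.28) were higher in SAM2, while Itgb3 (-0.57), Itgb4 (-2.11), Itgb7 (-1.14) and Itgb8 (-0.74) were lower. Itgal (-3.75, from 3 reads in SAM2) and Itgb6 (-2.71) were in the table through SAM1 alone, so the filter fixed their direction and these 2 values are a description. The laminin chains Lama2 (0.49), Lama5 (2.73), Lamb1 (0.12), Lamb2 (0.18) and Lamc1 (0.68) were higher in SAM2 and Lama4 (-0.48) was lower.

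Related genes differed between the lines too. Vasp (0.11), Fbn1 (0.61), Ccn3 (0.85), Ccn2 (0.49), Agrn (0.64), Sgcb (0.55), Dag1 (0.34), Sdc2 (0.55) and Cd81 (0.56) were higher in SAM2. Ptk2b (-0.39), Parvb (-0.90), Actn1 (-0.22), Npnt (-0.78), Edil3 (-0.43), Dmd (-2.54), Col15a1 (-1.32) and Cd151 (-0.26) were lower. With quantile normalization the call of Vasp was lost (0.058, adjusted p = 0.0717). Hnrnpk, the targeted gene, was higher by 0.15 in SAM2 than in SAM1.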

How the results depend on the processing

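The counts of members called, 18 in the pooled comparison, 27 in SAM1, 27 in SAM2 and 24 between the lines, stayed within 1.5 times under every alternative run, at 15 to 25, 23 to 27, 24 to 27 and 21 to 25. The lows of 23 in SAM1 and 21 between the lines came from a run of only the 26 members above 10 in every library. In these comparisons that run called 10095 and 8286 of 13171 genes. Leaving out 1 library gave 15 to 19, 26 to 27, 25 to 27 and 22 to 24. Of all 15184 genes, the same runs called 6761 to 8133, 10734 to 11150, 10014 to 10893 and 8235 to 9492. The highest pooled count, 25, came from a fit of 3 groups with the mean of both lines. That fit called 11323 of all 15184 genes, beside 8179 in the main pooled fit. Its spread leaves out the difference between the lines, and Itga3 (adjusted p = 1.48e-07, limma) and Lama5 (adjusted p = 2.2e-08, limma) passed in it. Quantile normalization turned the direction of Itga3 in SAM1 (0.032), of Itgb1 in the pooled comparison (0.086) and in SAM2 (0.20), and of Hnrnpk in the pooled comparison (0.16) and in SAM1 (0.094), and the cause was not tested. Over all alternatives, a call changed for 11 members in the pooled comparison, 5 in SAM1, 6 in SAM2 and 6 between the lines. The pooled calls of Itga8, Itgav and Itgb1 were each lost without Empty replicate 3 (adjusted p = 0.114, 0.1 and 0.0743, limma).

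Same-numbered libraries of different groups were not paired by the labels, and the mean correlation of their deviations was 0.053 over 9 pairs, with 3 of them above 0.1. A fit with the replicate number as a block called 18, 27, 27 and 24 members. Over all genes it moved the pooled calls from 8179 to 7343, and those in SAM1 from 11275 to 11631, in SAM2 from 10699 to 11095 and between the lines from 9162 to 9812. Itgal, Itgb6, Lamb3, Itga4 and Lama3 rest on few reads, and their sizes are the least certain.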
